A study of Mus musculus with 6 samples.

Results

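The transcripts described here are 10 mRNAs of the immediate early response and of the circuits that restrain it, followed through their poly(A) tails in resting T cells. They were listed by Ensembl gene ID, in the order Jun (ENSMUSG00000052684), Junb (ENSMUSG00000052837), Jund (ENSMUSG00000071076), Fos (ENSMUSG00000021250), Fosb (ENSMUSG00000003545), Dusp1 (ENSMUSG00000024190), Zfp36 (ENSMUSG00000044786), Zfp36l2 (ENSMUSG00000045817), Ier2 (ENSMUSG00000053560) and Nfkbia (ENSMUSG00000021025), and not by any measured value. Of these 10, 8 were among the 7282 gene IDs that had a linked tag, and they held 88 linked tags, of which 62 carried a tail. The names are those that came with the list, because the deposited files hold IDs without symbols.

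The libraries are mTAIL-seq libraries, in which a hairpin adaptor is ligated to the RNA 3′ end so that sequencing reads through the tail. Naive CD4 T cells (TCRb+ CD4+ CD25- CD62L-high CD44-low) had been sorted from mice of both genotypes. The 3 WT libraries came from littermate controls with floxed alleles of both genes (Btg1f/f Btg2f/f), and the 3 DKO libraries from mice of the same alleles with CD4-Cre added (Btg1f/f Btg2f/f-CD4-Cre), a recombinase under Cd4 control that acts in the T lineage. The floxed alleles are thus shared by all mice, and an effect of Cre itself cannot be told apart from the loss of the genes. No age or treatment is given, and the labels speak of 3 replicates in one place and of 2 pairs of mice in another, so that p-values measure the spread between libraries, which may in part be technical.

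Immediate early genes are transcribed within minutes of a signal without new protein synthesis, and many of their mRNAs are short-lived. Their 3′ untranslated regions often hold AU-rich elements, which proteins of the ZFP36 family bind and which lead to removal of the tail by the CCR4-NOT deadenylase. BTG1 and BTG2, whose genes are targeted in DKO T cells, bind the same deadenylase and the poly(A)-binding protein. A tag is the unit of the deposited files and groups 1 or more reads. It counted as tailed at 5 nt or more and as without a tail below that. All shares given here are of captured tags. How well RNA ends with a short tail, no tail or an added U were captured was not tested.

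Depth was low for these mRNAs. The libraries held 3943 to 24024 tailed tags linked to a gene ID, and no member had more than 5 tailed tags in any of them. Fos, with the most tailed tags, had 15 over all 6 libraries, and 624 of 6469 gene IDs had more. The libraries numbered 3 stood apart in both genotypes: 28.0% (WT) and 24.2% (DKO) of their linked tags had no tail, against 5.99% to 8.04% in the other 4. They gave 5 of the 62 tailed member tags.

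**Figure D1:**
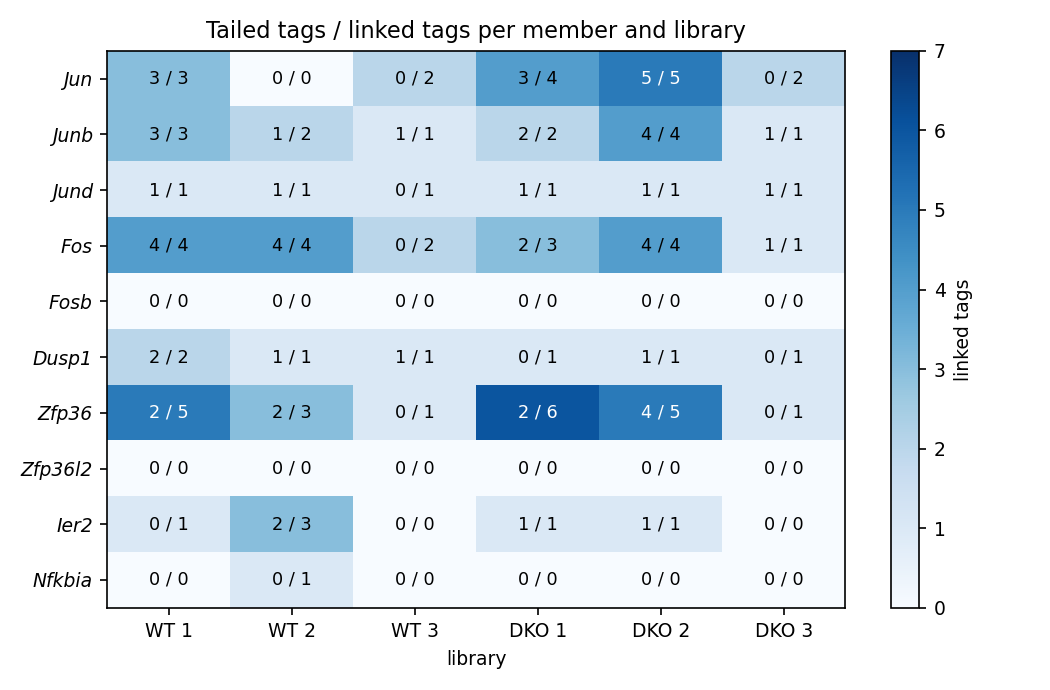
Tailed tags over linked tags (numbers in the cells) for each of the 10 mRNAs (rows) in each library (columns), with the shade giving the linked tags. The counts run from 0 to 6 linked tags, and Fosb and Zfp36l2 are at 0 in all 6 libraries.

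The tails themselves were read base by base for part of the tags. Those below are printed 5′ to 3′ because their full length was listed or because they carry the bases at issue; capitals mark every base that is not A, and T stands for U. A single added T was at the right end of the listed string in 86.4% of 1238 gene-linked tags of all genes that had one, which fixes the reading direction. The first 3 show how short the tails of Jun could be, the next carries the added U of Zfp36, and the others hold bases other than A inside the tail.
Jun, WT replicate 1, 10 nt: aaaaaaaaaa
Jun, DKO replicate 1, 8 nt: aaaaGaaa
Jun, DKO replicate 2, 7 nt: aaaaaaa
Zfp36, WT replicate 2, 7 nt: aaaaaaT
Zfp36, DKO replicate 1, 33 nt: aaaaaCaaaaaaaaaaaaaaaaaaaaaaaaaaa
Jund, DKO replicate 1, 52 nt: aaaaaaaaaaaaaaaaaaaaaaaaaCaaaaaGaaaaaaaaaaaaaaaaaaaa
Among tags whose listed string was as long as the tail, 4 of 26 member tags (15.4%, 95% exact interval 4.36 to 34.9) and 2091 of 30918 other tags (6.76%, 6.49 to 7.05) held a base other than A, and the second share lies inside the first interval. The exact (Clopper-Pearson) intervals used here cover counting error only, and reads amplified by PCR may make tags that are not independent molecules.

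The first question was how the tails of these mRNAs compared with those of other transcripts. Pooled over libraries, a larger share of their tails was short, in large part those of Jun. A larger share of their tags also had no tail, with Zfp36 giving 11 of the 26. Over all libraries the 62 tailed member tags ran from 6 to 230 nt, with a median of 52 nt and quartiles of 31 and 90.25 nt. The 84095 tailed tags of all other gene IDs had a median of 63 nt and quartiles of 43 and 92 nt. The means were close, at 70.1 and 71.8 nt, and the members also held long tails.

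Tails under 30 nt made up 15 of 62 member tags (24.2%, 95% exact interval 14.2 to 36.7) and 10.7% (10.5 to 10.9) of other tags. Without the libraries numbered 3 the shares were 22.8% (13 of 57 tags, 12.7 to 35.8) and 8.98% (8.78 to 9.19). Without Jun the members had 9 of 51 such tails (17.6%, 8.40 to 30.9), and 7 of 46 (15.2%, 6.34 to 28.9) in the libraries numbered 1 and 2, intervals that include the shares of other tags. By library the order was mixed: the members lay below other tags in WT replicates 1 (6.67% against 9.77%) and 3 (0 of 2 tags against 25.3%), near them in DKO replicate 1 (9.09% against 8.71%), and above them in the other 3. In WT replicate 1 the member median, 94 nt, was above the 64 nt of other tags.

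The class from 60 to 89 nt held 16.1% (8.02 to 27.7) of member tags against 28.2% (27.9 to 28.5) of others. Without the libraries numbered 3 it held 17.5% (8.75 to 29.9) against 29%, which lies inside the members' interval. Tails of 150 nt or more held 11.3% (4.66 to 21.9) of member tags and 5.15% (5.01 to 5.31) of others, with the second value inside the interval of the first.

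**Figure D2:**
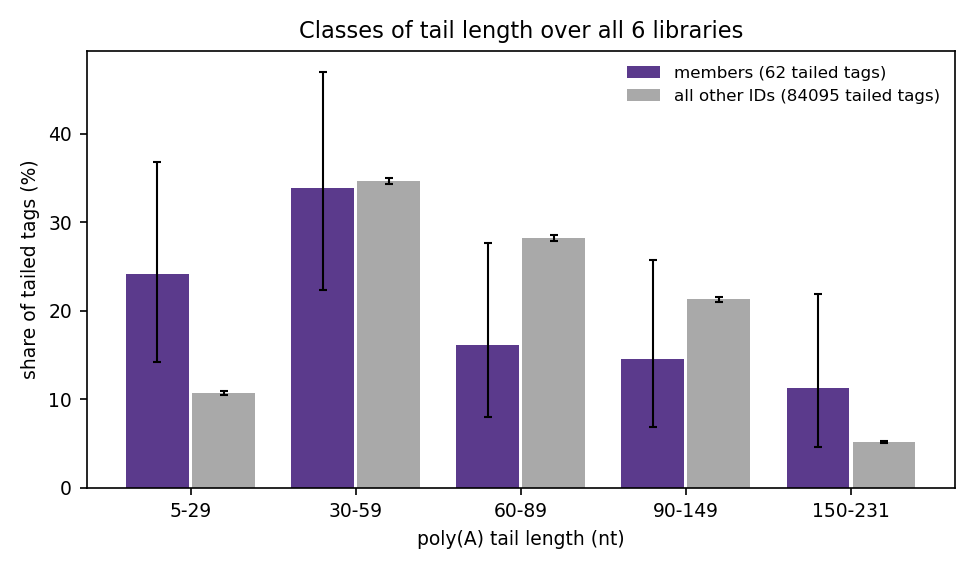
Share of tailed tags (%) in 5 classes of tail length (nt) over all 6 libraries, for the 62 tailed member tags and the 84095 of all other gene IDs; bars start at 0 and error bars are 95% exact intervals. Members hold 24.2% of their tags at 5 to 29 nt against 10.7% for other IDs.

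No tail was found on 26 of the 88 linked member tags (29.5%, 95% exact interval 20.3 to 40.2), against 10.1% (9.90 to 10.3) of tags of other gene IDs. Without the libraries numbered 3 the shares were 21.9% (16 of 73 tags, 13.1 to 33.1) and 6.89% (6.71 to 7.07). The 3 WT libraries had 21.1%, 26.7% and 75% of member tags without a tail, against 7.26%, 8.02% and 28.0% for other IDs. The 3 DKO libraries had 38.9%, 4.76% and 57.1%, against 6.99%, 6.0% and 24.1%. The members thus lay above the other transcripts in 5 of 6 libraries and slightly below them in DKO replicate 2. Their 95% exact interval excluded the share of other IDs only in WT replicate 3 (34.9 to 96.8) and DKO replicate 1 (17.3 to 64.3). The tags of a library come from several genes, whose spread these intervals leave out, so this is no test. Of the member tags without a tail, 3 of 4 in WT replicate 1 and 4 of 7 in DKO replicate 1 were of Zfp36.

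Other sparsely tagged transcripts had shares close to those of all. The 6769 other gene IDs with no more than 21 linked tags, the number of the most-linked member, had 10.6% of tags without a tail and 11.4% of tails under 30 nt, and the 505 IDs with more had 10% and 10.4% (a tag linked to IDs of both classes counts in each). Of the 88 member tags, 0 were linked to a second gene ID and 36.4% consisted of 1 read, against 46.3% of other tags. These are descriptions of a list chosen with earlier results known, and no test is given for them.

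**Figure D3:**
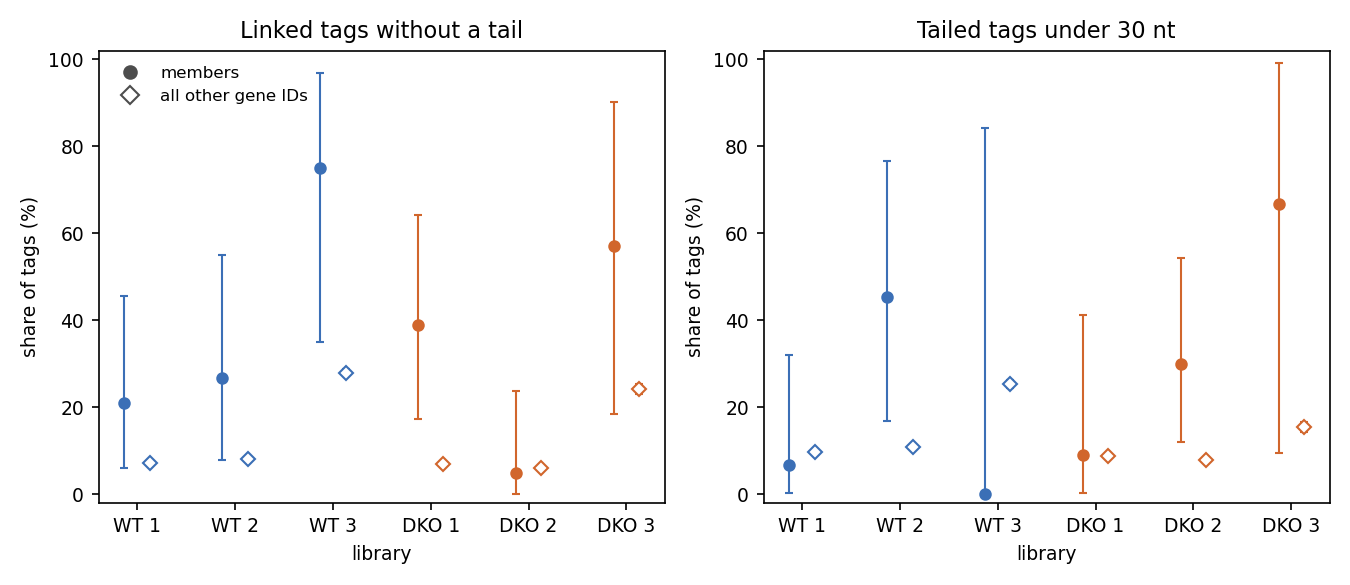
Share of linked tags without a tail (left, %) and of tailed tags under 30 nt (right, %) in each library, for the members (filled) and all other gene IDs (open), with 95% exact intervals over tags; WT is blue and DKO orange. The members lie above the other IDs in 5 of 6 libraries on the left, while the right panel has no common order. On the left, the members' intervals exclude the share of other IDs only in WT replicate 3 and DKO replicate 1.

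The AP-1 subunits come first. Jun and Fos proteins pair to form this transcription factor, with Jun, Junb and Jund as Jun-type and Fos and Fosb as Fos-type partners. Together they held 53 linked and 43 tailed tags. In the libraries numbered 1 and 2, 3 of 42 of their tags (7.14%, 95% exact interval 1.5 to 19.5) had no tail, against 6.89% for other transcripts. In the libraries numbered 3 it was 7 of 11 (63.6%, 30.8 to 89.1) against 26.6%, and over all libraries 18.9% (9.44 to 32.0) against 10.1%. The members outside AP-1 had 13 of 31 tags without a tail in the libraries numbered 1 and 2 (41.9%, 24.5 to 60.9). Of these, Zfp36 alone gave 9 of the 13 tags without a tail and 19 of the 31 linked tags.

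Fos had the most tailed tags. Its WT tails were 58, 62, 66 and 94 nt in replicate 1 and 27, 52, 60 and 79 nt in replicate 2, and both tags of WT replicate 3 had none. Its DKO tails were 74 and 136 nt in replicate 1, beside a tag without a tail, 58, 70, 154 and 167 nt in replicate 2, and 27 nt in replicate 3. Tails above 100 nt were seen in DKO alone, in 3 of 7 tags, and the DKO tag of replicate 3 was as short as the shortest in WT.

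Within replicates 1 and 2, the mean Fos tail was 70.0 and 54.5 nt long for WT and 105 and 112 nt for DKO, with no overlap. Of 1097 gene IDs with a tailed tag in all 4 of these libraries, 19.9% were likewise higher in DKO without overlap, as was 1 of the 4 members tested, Fos. The log2 difference was 0.81 (SE 0.27, limma unadjusted p = 0.038, adjusted p = 0.81), and limma called 0% of the 1097 IDs at the adjusted threshold of 0.05, with 61 below it before adjustment. With the replicate number as a block the limma adjusted p was 0.90. The difference did not pass, and no fit over all 6 libraries was possible for want of a tailed tag in WT replicate 3.

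Fos abundance did not differ beyond the spread between libraries. Fos had 4, 4 and 0 tailed tags in WT and 2, 4 and 1 in DKO, or 1.96 ± 1.79 (SD, n = 3) and 1.72 ± 0.786 (SD, n = 3) tailed tags per 10000. The groups overlapped, with the highest and the lowest value both in WT.

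Junb was the only member with a tailed tag in every library. Its WT tails were 40, 181 and 229 nt in replicate 1, 29 nt in replicate 2 and 50 nt in replicate 3. Its DKO tails were 59 and 143 nt in replicate 1, 6, 69, 122 and 131 nt in replicate 2, and 31 nt in replicate 3. The 2 longest tails were in WT and the shortest in DKO. The last of these, 6 nt after mapping, had been 3 nt before it.

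Junb tails averaged 150, 29 and 50 nt in the WT libraries, against 101, 82 and 31 nt in the DKO libraries. The groups overlapped, and the log2 difference was 0.08 (SE 0.70, limma adjusted p = 0.96) over the 442 gene IDs tailed in all 6 libraries, of which 0% were called (10 had an unadjusted p under 0.05). A replicate block gave an SE of 0.49 and a limma adjusted p of 0.95 for Junb. The main test asked for 10 tailed tags per library, which 44 IDs and no member reached; 0% were called by limma (2 had an unadjusted p under 0.05). Per 10000 tailed tags, Junb had 1.35 ± 0.447 (SD, n = 3) for WT against 1.72 ± 0.786 (SD, n = 3) for DKO. Only 1 of its 13 linked tags, in WT replicate 2, had no tail.

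Jun had the lowest median tail and the largest share under 30 nt of the 7 members with a tail. By the mean Ier2 was shorter, at 41.75 nt against 54.7 nt. The shortest single tails, 6 nt, were of Junb and Dusp1, and both had been 3 nt before mapping. The 3 WT tails of Jun, all in replicate 1, were 10, 103 and 190 nt. In DKO they were 8, 41 and 45 nt in replicate 1 and 7, 9, 20, 23 and 146 nt in replicate 2. Tails under 30 nt made up 6 of 11 (54.5%, 95% exact interval 23.4 to 83.3), against 15.2% (7 of 46 tags) for the other members and 8.98% for other transcripts in the libraries numbered 1 and 2. The median Jun tail was 23 nt, and 10 of 1008 other gene IDs with at least 10 tailed tags had a median as short or shorter. Jun was singled out after its values were seen.

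Jun tags without a tail were 4 of 4 in the libraries numbered 3 and 1 of 12 in the others. Its listed strings also held bases other than A, among them the tag of 103 nt in WT replicate 1, with 4 in the 100 bases listed. Tailed tags numbered 3, 0 and 0 for WT against 3, 5 and 0 for DKO, or 0.590 ± 1.02 (SD, n = 3) and 1.18 ± 1.07 (SD, n = 3) per 10000, and overlapped. All but 1 of the 8 Jun tails in DKO were under 50 nt, but WT had 3 tails in 1 library to set against them, so no difference can be read.

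Jund, unlike the others, is held to be expressed steadily in resting cells. It had 1 linked tag in each library. The tails were 125 and 10 nt in WT replicates 1 and 2, and 52, 61 and 27 nt in DKO. The tag of WT replicate 3 had none after mapping and 4 nt before it. The WT values span the DKO values. Fosb, a Fos-type partner, had no linked tag in any library. Taken singly, the libraries allow up to 1.25 to 7.61 tailed tags per 10000, depending on the library (3 counts of its total). All libraries together would set a lower limit, which was not computed.

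**Figure D4:**
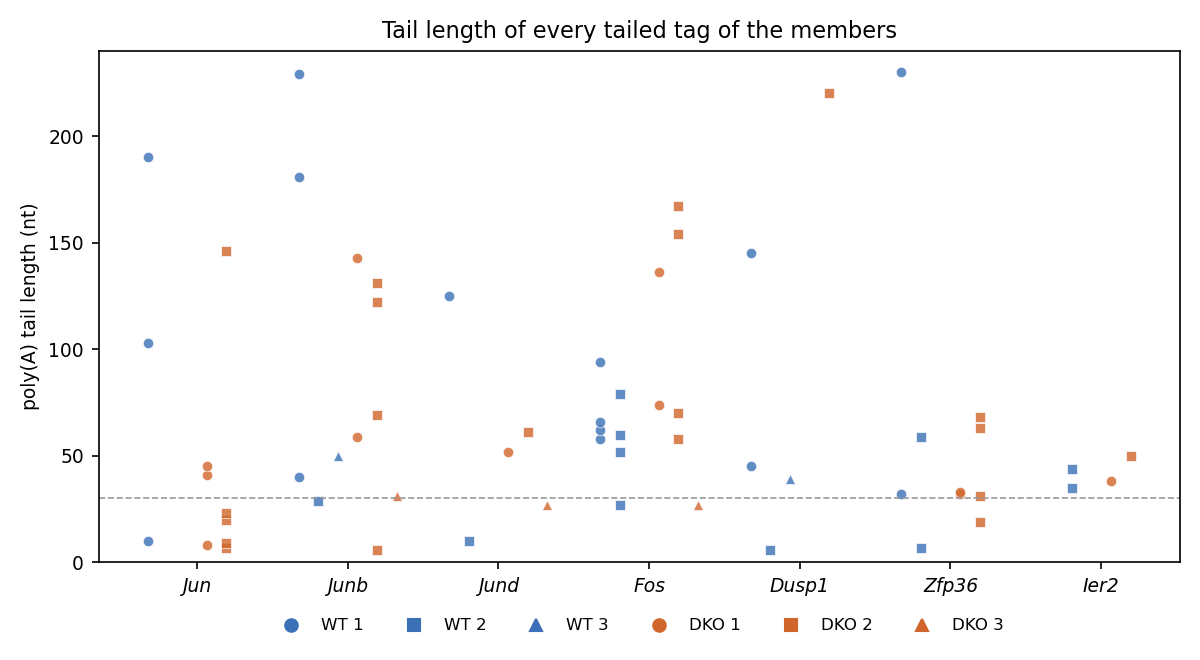
Length (nt) of each of the 62 tailed member tags, by gene, with 1 point per tag (near-equal lengths overlap), colour for genotype and shape for replicate number; the dashed line is at 30 nt. Fos tails above 100 nt are in DKO, the longest Junb tails are in WT, and 6 of 11 Jun tails lie under the line.

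Zfp36 encodes tristetraprolin, which binds AU-rich elements and recruits the deadenylase, its own mRNA included. It had the most linked tags, 21, and more of them lacked a tail than not. In the WT libraries 3 of 5, 1 of 3 and 1 of 1 Zfp36 tags had no tail, against 4 of 6, 1 of 5 and 1 of 1 in DKO. The share was 52.4% (11 tags, 95% exact interval 29.8 to 74.3), and 47.4% (9 of 19 tags, 24.4 to 71.1) without the libraries numbered 3. Of 1110 other gene IDs with at least 10 linked tags, 72 had a share as high or higher. WT and DKO did not separate, with 5 of 9 and 6 of 12 tags.

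Without Zfp36 the other members had 15 of 67 tags without a tail (22.4%, 13.1 to 34.2), and in the libraries numbered 1 and 2 they had 7 of 54 (13%, 5.37 to 24.9). The latter interval includes the 6.89% of other transcripts, while that with Zfp36 (13.1 to 33.1) does not. Neither is a test, as the intervals leave out the spread between genes and between libraries. Zfp36 too was singled out after its values were seen.

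The tailed Zfp36 tags were 32 and 230 nt in WT replicate 1, 7 and 59 nt in WT replicate 2, 32 and 33 nt in DKO replicate 1, and 19, 31, 63 and 68 nt in DKO replicate 2. The median was 32.5 nt, and 20 of 1008 other gene IDs had one as short or shorter. In replicates 1 and 2 they averaged 131 and 33 nt for WT against 32.5 and 45.25 nt for DKO, which overlap. The log2 difference was -0.78 (SE 0.74, limma adjusted p = 0.90), and with the replicate number as a block the limma adjusted p was 0.96. Zfp36l2, a second member of this family, had no linked tag, with the same limits as for Fosb.

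Dusp1 encodes a phosphatase that switches off MAP kinases. Its tails were 45 and 145 nt, 6 nt and 39 nt in the 3 WT libraries, and 220 nt in DKO replicate 2. The tail of 6 nt, the only one in WT replicate 2, had been 3 nt before mapping. The tags of DKO replicates 1 and 3, 1 each, had no tail. Per 10000 tailed tags, Dusp1 had 1.15 ± 0.259 (SD, n = 3) for WT against 0.139 ± 0.240 (SD, n = 3) for DKO. Every DKO value was lower than every WT value, on counts of 2, 1 and 1 against 0, 1 and 0. This order was seen in 1.34% of 6469 gene IDs, and in 1 of 7 members with a tailed tag. Only IDs with a tailed tag in all 3 WT libraries could have it, and the median ID had 2 tailed tags over all libraries. The share among IDs that could have it was not computed, so 1.34% does not measure how rare it is. Counting all linked tags, 2, 1 and 1 in WT stood against 1, 1 and 1 in DKO, so that the libraries without a tailed Dusp1 tag still held a tag without a tail.

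Nfkbia encodes the inhibitor of NF-kB, and had 1 linked tag, in WT replicate 2, without a tail. Ier2, an early gene of nuclear location, had tails of 35 and 44 nt in WT replicate 2, 38 nt in DKO replicate 1 and 50 nt in DKO replicate 2. With a tag without a tail in both WT replicates 1 and 2, that made 4 tailed tags of 6. They spanned 15 nt, the narrowest range of the 7 members with a tail.

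The second question was whether the members differed in abundance between genotypes. Per 10000 tailed tags the members together had 7.10 ± 3.76 (SD, n = 3) for WT against 7.08 ± 1.57 (SD, n = 3) for DKO. In such bulk libraries fewer cells with a transcript and less of it per cell cannot be told apart. The WT libraries had 8.85, 9.66 and 2.79, and the DKO libraries 5.32, 8.33 and 7.61, so that both the highest and the lowest were WT. None of the members passed the low-count filter of edgeR's test, which left 170 gene IDs, of which 0% were called and 13 had an unadjusted p under 0.05 (DESeq2 called 0, with 8). A replicate block in edgeR gave 3 calls among 224 IDs, no member among them.

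Without that filter 7 members were tested among 6469 gene IDs, of which again 0% were called, and 154 had an unadjusted p under 0.05, no member among them. Dusp1 had a fitted log2 difference of -1.98 (SE 1.45, edgeR adjusted p = 0.64), against a median of 0.54 over all IDs. With all linked tags counted, tags without a tail included, it was -0.67 (SE 1.26, edgeR adjusted p = 0.80). For tailed tags Jun had 0.96 (SE 1.07, edgeR adjusted p = 0.64), and Fos had -0.52 (SE 0.92, edgeR adjusted p = 0.78). Zfp36 was at 0.19 (SE 1.06, edgeR adjusted p = 0.93) and Junb at 0.11 (SE 0.99, edgeR adjusted p = 0.93). Jund was at 0.21 (SE 1.42, edgeR adjusted p = 0.93) and Ier2 at -0.32 (SE 1.5, edgeR adjusted p = 0.93). For tailed tags, only the value of Jun lay above the median of 0.54 over all IDs. Fitted values of genes with libraries at 0 depend on the prior count and are no bounds.

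The third question was whether member tails were longer in DKO than in WT. Pooled over the members, tails averaged 107, 37.1 and 44.5 nt in the WT libraries (15, 11 and 2 tags), against 60.1, 74.7 and 28.3 nt in the DKO libraries (11, 20 and 3 tags). The group means were 63.0 nt ± 38.6 (SD, n = 3) and 54.4 nt ± 23.7 (SD, n = 3), and the difference (DKO minus WT) of -8.60 nt lay within that spread. It was -47.2 nt within replicate 1, 37.6 nt within replicate 2 and -16.2 nt within replicate 3. Other gene IDs had differences of -2.41, 8.60 and 12.6 nt, so that the sign was the same for both in replicates 1 and 2.

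Shares of short tails and of tags without a tail had no common order between genotypes either. Tails under 30 nt made up 1 of 15, 5 of 11 and 0 of 2 member tags in WT and 1 of 11, 6 of 20 and 2 of 3 in DKO. The share without a tail was 40.9% ± 29.7 (SD, n = 3) for WT against 33.6% ± 26.6 (SD, n = 3) for DKO. It was 17.8 percentage points higher in DKO within replicate 1 and lower within replicates 2 and 3 (DKO minus WT, -21.9 and -17.9). These shares rest on 7 to 21 linked member tags per library.

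Added uridine, a mark of decaying mRNA, was rare on the members. A tag was counted where its added bases held a T, alone or among other bases. By this count it was found on 2 of 62 tailed tags (3.23%, 95% exact interval 0.393 to 11.2), against 2.51% (2.41 to 2.62) of other tags. The first was the Zfp36 tag of 7 nt in WT replicate 2 printed above. The second was the Jun tag of 9 nt in DKO replicate 2, whose added bases were listed as GTGTCT, a mixed string and not U alone. Both tails were under 10 nt.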

How the data were processed

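The mTAIL-seq files of 6 libraries (3 WT, 3 DKO) were used. The submitters' processing notes name GSNAP, bedtools, mm10 and GRCm38; for the tail caller and annotation release, nothing was given in the sources used here. The authors deposited, per library, mapped tags with whole-number read counts and a tail length in nt, the gene IDs each tag was linked to, and summary values for every ID. Recomputed tailed tag counts equalled the deposited ones for 99.97% to 100% of gene IDs. The largest gap in geometric mean tail length was 33.7 nt, in WT replicate 1, and no more than rounding in the other libraries. Member values equalled the deposited ones. The member list, the gene lists and the tests were chosen with earlier results of these data known.

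Tags and IDs were joined as deposited, and the tail after mapping was used (0 or -1 nt counted as without a tail, and no linked tag had 1 to 4 nt). Some member tags without a tail had a short one before mapping, as for Jund in WT replicate 3 (4 nt) and Ier2 in WT replicate 1 (3 nt). Conversely, the Junb and Dusp1 tags tailed at 6 nt had 3 nt before mapping. Mean tail length was tested with limma 3.58.1 on the log2 scale, and tag counts with edgeR 4.0.16 (TMM, filterByExpr, quasi-likelihood), with Benjamini-Hochberg adjustment over all IDs and a threshold of 0.05; DESeq2 1.42.0, R 4.3.3, SciPy 1.17.1, pandas 2.3.3 and Python 3.11.15 served for the rest. Both fits were run on simulated data, but no outcome is given here for mRNAs with as few tags as the members. How large a change the fits could detect in the members is thus not known. Deviations from group means of same-numbered libraries correlated at 0.14, 0.21 and 0.38 in tag count (170 IDs) and 0.25, 0.40 and 0.52 in tail length (44 IDs). The main tests had no block, and the number served as a block in added fits. Which libraries share a mouse is not given, and the libraries numbered 3 also shared a high share of tags without a tail. All 10 members were named by rule. The further early genes, cell type markers, Btg1 and Btg2, and so the identity of the sorted cells, are not analysed here, since the gene table used holds no Ensembl IDs.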

Additional observations from a re-analysis of the deposited data

How the results depend on the processing

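A member entered 4 of the 20 fits of tail length and 4 of the 17 of tag count, and 0 members were called in these, those with the replicate block included; the other fits say nothing of the members, among them the replicate block with the main filters. Over all IDs the edgeR count, 0 in the main test, was 3 with the replicate block, 8 without WT replicate 3 and 30 with numbers 1 and 2 only; every other fit called 0. No planned tail fit held a member, and fits that admitted Junb or Fos were chosen after seeing the data. With single libraries left out, the DKO minus WT difference ranged over -21.5 to 13.6 nt in pooled tail length, 2.17 to 31.9 percentage points in tails under 30 nt, -19.1 to 9.74 in tags without a tail, -3.03 to 1.67 in tags with a U, and -2.17 to 1.27 tailed tags per 10000. All but the share under 30 nt changed sign, pooled tail length without WT replicate 1 (13.6 nt) and DKO replicate 3 (4.42 nt), and tags without a tail without WT replicate 3 (9.74) and DKO replicate 2 (7.11). Tails under 30 nt were -6.52 percentage points in numbers 1 and 2 only and -1.62 under 20 nt. The 48 alternatives of the pooled values each moved it by less than 1 SD between libraries, which is wide. Weighting members equally was not run, since none had 10 tailed tags in every library.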
